A study of Mus musculus with 2 samples.

Results

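Antisense transcript loci are stretches of the genome where long reads were placed on the strand opposite an annotated gene. They were collected from 2 long-read RNA sequencing libraries of gastrocnemius, the large calf muscle, from male B6CASTF1/J mice (first-generation hybrids of C57BL/6J and CAST/EiJ) aged 18 to 20 months. The libraries form 1 group with no treatment, replicates 1 and 2, each from 2 µg of total RNA with added spike-in RNAs. The labels name a separate biosample for each replicate but the same donor identifier for both, and a test of 1 library against the other sets their difference against counting error alone, not against a spread between animals. Every transcript model that the authors classed as belonging to an antisense gene was taken, 6700 models in replicate 1 and 8888 in replicate 2, and models whose spans overlapped on the same strand were joined over both libraries. This gave 11543 loci of 29312 features with reads, the others being annotated genes, spike-ins and intergenic loci. Of these loci, 6243 had reads in replicate 1 and 8253 in replicate 2. Each locus was named for the annotated gene on the other strand with which it shared the most exon bases, and the reads of that gene are called sense reads.

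Natural antisense transcripts are RNAs made from the strand opposite another gene. They can start near the promoter of that gene, run past the end of a neighbouring gene or lie wholly inside the gene, and some are spliced. A spliced RNA carries the direction of its strand in the bases at its splice sites, whereas the strand of an unspliced read rests on how the read was oriented before alignment. In muscle, antisense RNAs have been described within the myosin heavy chain gene clusters.

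Many of the loci whose ends could be read shared a feature of the sequence just past their 3′ ends, so examples are shown first. They were chosen after their values were seen, and Qk, Klhl24 and Zbtb38 lie outside the rule by which loci were named. Each line gives the last 10 bases of the most read model and the 20 genomic bases that follow it, on the antisense strand, with runs of 3 or more adenines past the end in capitals. At the first 5 a stretch of adenines follows the end in the genome and at the next 3 none does, although the Ptp4a2 model itself closes with 10 adenines, and the ends at Ptp4a2 and Zbtb38 coincide with annotated exon boundaries. Klhl31 stands last because its end differed between the libraries. The bases come from the GENCODE M21 transcripts (mm10). For Rc3h2 the end of replicate 2 is shown, and at the other loci named once the end was the same in both libraries.
Rc3h2 (chr2:37374659-37374688, + strand): ctccactctcAAAAAAAAAAAAAAAAgaca
Pitpnc1 (chr11:107211754-107211783, + strand): acaccttaccAAAAAAAAAAAAAAAAgttt
Msrb3 (chr10:120783305-120783334, + strand): aactttggacAAAAAAAAAAAAAAAAtgga
Neat1 (chr19:5834922-5834951, + strand): agatagaaccAAAAAAAAAAAAAAAAAAAA
Qk (chr17:10212392-10212421, + strand): tctttcaattAAAAAcAAAAcacAAAAgaa
Klhl24 (chr16:20123793-20123822, − strand): taagagcactgtctgttcttccAAAggacc
Ptp4a2 (chr4:129839131-129839160, − strand): aaaaaaaaaagcctactacttctgaggcca
Zbtb38 (chr9:96685414-96685443, + strand): gatttctaactgttgttgtcactcAAAgga
Klhl31, replicate 1 (chr9:77656662-77656691, − strand): accaggcccatccagAAAAAAggAAAAAAA
Klhl31, replicate 2 (chr9:77655507-77655536, − strand): ccccgcgcggccccagctggctgcccccca

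Antisense loci held 27665 of 1509380 reads in replicate 1, or 1.83% (95% exact binomial interval 1.81 to 1.85%), and 38572 of 1173233 reads in replicate 2, or 3.29% (3.26 to 3.32%). The mean was 2.56% ± 1.03 (SD, n = 2), and the share was higher in replicate 2 by far more than the counting error of either library. The reads were very unevenly spread. Of the 11543 loci, 6931 had 1 read over both libraries, 593 had at least 10 and 38 had at least 100, and those 38 loci held 49.9% of all antisense reads. A library in which a locus had 0 reads could still hold it at up to 1.99 CPM (read counts scaled to a common library total) in replicate 1 and 2.56 CPM in replicate 2, the level of 3 reads. Intervals and these limits cover counting error only, because copies made by amplification cannot be told from separate molecules. Of the loci, 4 lay on spike-in RNAs.

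The most read antisense locus lay in a copy of the ribosomal RNA gene unit on chromosome 17, opposite the annotated non-coding gene Gm26917, with 5854 reads in replicate 1 and 11228 in replicate 2. Ribosomal RNA genes are present in many copies, and the locus also overlaps 2 annotated genes of its own strand, so both its place and its strand label are uncertain. The 2 loci of this unit held 21.9% of the antisense reads in replicate 1 and 29.2% in replicate 2. Without them and the spike-ins, the antisense share was 1.41% in replicate 1 and 2.32% in replicate 2. The library with the higher share was thus the same with and without the ribosomal unit.

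The antisense locus opposite Klhl31, a kelch-repeat protein gene expressed in skeletal and cardiac muscle, came next with 3499 reads in replicate 1 and 4208 in replicate 2. It covered 4601 bases (chr9:77655527-77660127, − strand) within the gene, 4271 of them opposite the 3′ UTR and 330 opposite coding sequence. Sense reads of the gene numbered 205 in replicate 1 and 166 in replicate 2. Klhl31 therefore had 20.8 antisense reads for each sense read, and in both libraries the antisense strand was the more read one.

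Other well read loci also lay opposite 3′ UTRs and outnumbered the sense reads. The locus opposite Rc3h2, which encodes the RNA-binding protein Roquin-2, had 154 and 211 reads (chr2:37370073-37374668, + strand) against 10 and 8 sense reads. The locus opposite Nfia, a transcription factor gene, had 136 and 222 reads (chr4:98111218-98115886, − strand) against 6 and 8 sense reads. At both genes the antisense reads exceeded the sense reads in each library, by between 15.4 and 27.8 times.

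The reverse held at Ptp4a2, a protein phosphatase gene, where the antisense locus had 206 reads in replicate 1 and 159 in replicate 2 (chr4:129839151-129839678, − strand, mainly opposite the 5′ UTR) against 977 and 653 sense reads. At Msrb3, a methionine sulfoxide reductase gene, 148 and 110 antisense reads stood beside 186 and 181 sense reads. Neat1, the long non-coding RNA that scaffolds nuclear paraspeckles, had an antisense locus of 101 and 107 reads against 45 and 74 sense reads.

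Of 489 loci with at least 10 reads whose gene had at least 10 sense reads, 71 (14.5%) had more antisense than sense reads, and 53 of these did so in each library. By part of the gene, 42 of 151 loci lying mainly opposite a 3′ UTR had more antisense than sense reads, as did 18 of 271 lying mainly in introns. Over all 8819 loci whose gene had at least 10 sense reads, the median was 2.53 antisense reads per 100 sense reads. That value depends on which loci are taken, at 19.7 for loci with at least 10 reads and 0.664 for genes with at least 100 sense reads. Across the 489 loci, antisense and sense reads had a Spearman correlation of -0.05, a description over loci that share the same 2 libraries.

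**Figure D1:**
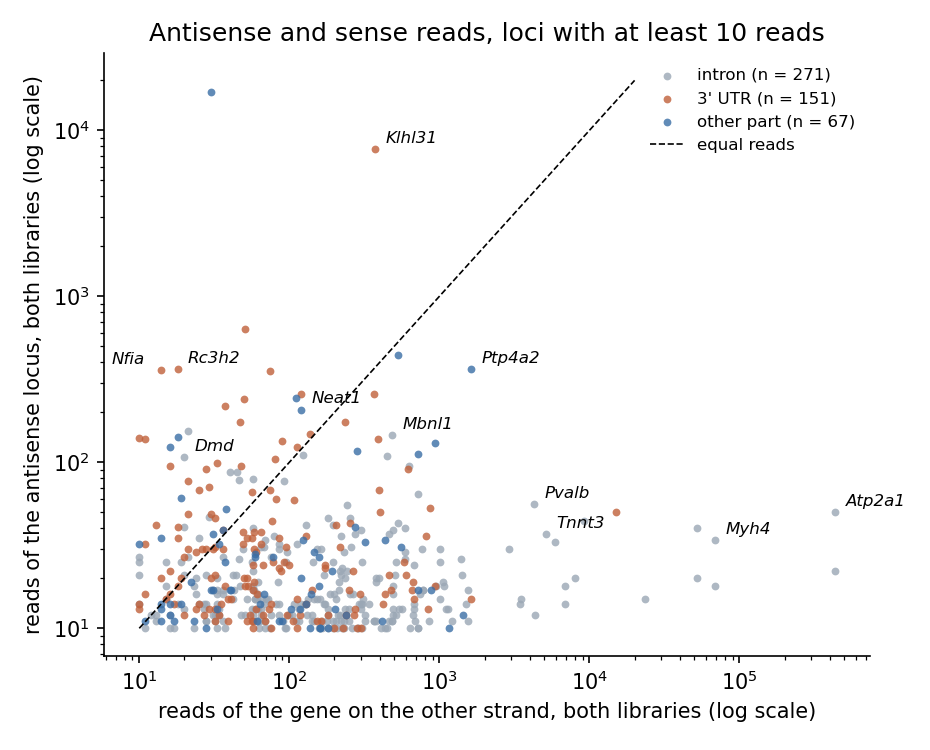
Reads of each antisense locus (vertical, log scale) against reads of the gene on the other strand (horizontal, log scale), both libraries summed, for the 489 loci with at least 10 antisense and 10 sense reads, coloured by their main part (grey intron, orange 3′ UTR, blue other). Points above the dashed line, 71 loci, had more antisense than sense reads, and the unlabelled point at the top left is the ribosomal locus opposite Gm26917.

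The loci lay mostly inside genes. Of 11436 loci with an annotated gene on the other strand, 10569 (92.4%) fell within the span of that gene, 454 crossed its start, 335 crossed its end and 78 covered all of it. Protein-coding genes stood opposite 10796 loci, and 6052 genes had at least 1 locus. Leaving out the ribosomal unit and spike-ins, 77.5% of loci lay mainly in introns and 9.30% mainly opposite 3′ UTRs, but the 3′ UTR loci held 37.6% of the reads. Much of that share came from Klhl31 alone. Its locus held 3499 of the 21242 antisense reads left in replicate 1 and 4208 of the 27255 in replicate 2. Among loci with at least 10 reads the shares were 53.1% in introns and 30.1% opposite 3′ UTRs. Coding sequence was the main part for 1.55% of loci and the 5′ UTR for 1.06%. A further 202 loci overlapped an annotated gene of their own strand, whose reads cannot always be told apart from theirs.

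**Figure D2:**
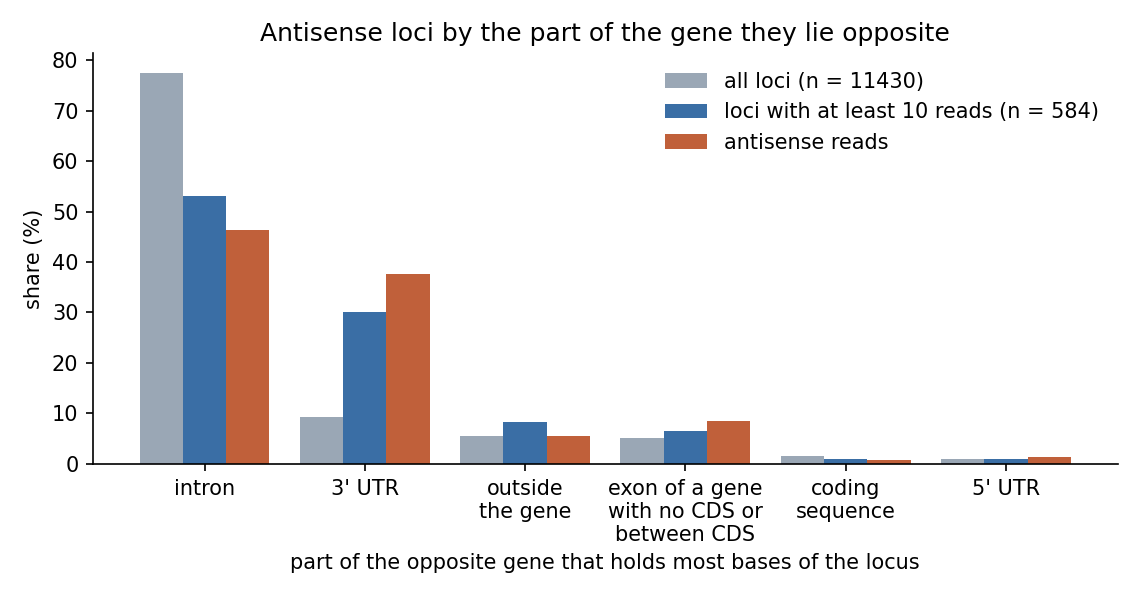
Share of antisense loci (grey), of loci with at least 10 reads (blue) and of antisense reads (orange) by the part of the opposite gene that holds most bases of the locus, in percent. Introns held 77.5% of loci, while 3′ UTRs held 9.30% of loci and 37.6% of reads, many of them from the Klhl31 locus alone.

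With genes grouped by their sense reads, antisense reads per 1000 sense reads were lower in each higher class. The ratio given here is grouped by its own denominator, which lowers it as sense reads go up. Genes with 1 to 9 sense reads had 240 antisense reads per 1000 sense reads, genes with at least 100 and under 1000 had 28.4, and the 18 genes with at least 10000 had 0.264. Klhl31, with 371 sense and 7707 antisense reads, falls in the class of at least 100 and under 1000. The share of genes with a locus went the other way at first, from 24.8% of the genes with 1 to 9 sense reads to 62.1% of those with at least 1000 and under 10000, and was 44.4% (8 of 18) in the highest class. The share of genes with at least 10 antisense reads was larger in each higher class, at 1.86%, 6.22%, 10.6%, 16.6% and 27.8%. In every class the genes with a locus were longer, with a median of 36409 bases against 12480 for genes of at least 100 and under 1000 reads.

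The contractile genes of fast fibres, the main fibre type of this muscle, include several of these most read genes. Of 15 fast contractile genes, 8 had an antisense locus, together with 111 antisense reads in replicate 1 and 217 in replicate 2, or 3.20 per 10000 sense reads. Atp2a1, the calcium pump of the sarcoplasmic reticulum in fast fibres, had 11 and 64 antisense reads beside 228292 and 205059 sense reads. Myh4, the fastest myosin heavy chain, had 20 and 43 antisense reads beside 34657 and 34487 sense reads. Acta1 (skeletal actin), Tnnc2 (fast troponin C), Actn3, Mylpf, Mybpc2, Tnni2 and Myh2 had none, although Acta1 alone had 79379 and 49670 sense reads. Ckm, the muscle creatine kinase, had 2 and 1 antisense reads beside 99344 and 58438 sense reads.

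Tnnt3, fast troponin T, and Pvalb, the calcium buffer parvalbumin, had more for their level, with 71.8 and 133 antisense reads per 10000 sense reads. The Tnnt3 locus overlaps an annotated gene of its own strand, Prr33, and is uncertain. Among 12 glycolytic genes, 5 had a locus, led by phosphofructokinase (Pfkm) with 15 and 31 antisense reads, and Aldoa, Pgk1, Pgam2, Eno3, Gpi1, Tpi1 and Gapdh had none. None of the 4 myosins of the developmental and cluster list (Myh3, Myh8, Myh13, Myh6) had an antisense read, and their sense reads came to 33 in all.

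The giant genes of the sarcomere and membrane were different. Of 10, 9 had a locus, with 390 antisense reads per 10000 sense reads. Titin (Ttn) had 20 loci with 40 and 66 antisense reads, and nebulin (Neb) 10 loci with 25 and 54. Dystrophin (Dmd), the membrane-anchoring protein lost in Duchenne muscular dystrophy and one of the longest genes, had 40 loci with 51 reads in replicate 1 and 147 in replicate 2, against 8 and 12 sense reads. Its most read locus (chrX:82950535-82952920, − strand, in an intron) held 29 and 79 of them.

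Slow contractile genes had a locus in 6 of 12 cases, with 12 and 55 antisense reads, and Actn2 held 5 and 33 of these. Of 17 myogenic and clock regulators, 11 had a locus. Myf5, an early myogenic factor, had 5 and 6 antisense reads and only 1 and 0 sense reads, while Mef2c had 11 and 16 antisense beside 328 and 513 sense reads. Per1, a clock repressor, had 8 and 9 antisense reads beside 26 and 7 sense reads. Myog, Per2, Nr1d1, Dbp, Cry1 and Mef2d had no antisense read.

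Most models were unspliced. Single-exon models made up 90.8% of antisense models in replicate 1 and 92.1% in replicate 2, and 901 loci (7.81%) held at least 1 spliced model. Spliced loci were read in both libraries in 347 cases (38.5%), unspliced loci in 2606 (24.5%). The 2 sets were not matched for reads, so these shares do not tie splicing to recurrence. Spliced loci held 45.0% of the antisense reads, although only 3.22% of the antisense reads were on spliced models. Of the spliced loci, 194 (21.5%) had a mirrored intron, that is one with both ends equal to those of an annotated intron of the sense gene, and in 171 of these every intron was mirrored. Of 1610 introns in all, 257 were mirrored and 216 were read in both libraries.

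Crebbp, the gene of a histone acetyltransferase, had the most mirrored introns among the best read spliced loci. Its antisense locus (chr16:4128444-4213997, + strand) had 17 and 24 reads, and 5 of its 7 introns had the ends of Crebbp introns. All 5 were read in both libraries, by 8 reads each in replicate 1 and by 10 to 16 in replicate 2. The sense gene had 12 and 8 reads, none of which shared an exon base with the locus. Mbnl1, a splicing regulator of muscle, had 43 and 23 reads over a mirrored intron of 65789 bases, and Ubl3, a ubiquitin-like protein gene, 23 and 19 over one of 39950 bases. Gtf2a1, a subunit of the general factor TFIIA, had 11 and 13 reads over a mirrored intron of 2733 bases. Sense reads overlapped the Mbnl1 locus (144 and 175) and the Ubl3 locus (290 and 227), but not the Gtf2a1 locus (0 and 0). Whether such reads were copies of sense RNA placed on the wrong strand was not tested.

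The junctions read there are shown on the antisense strand, 15 bases from each exon, with the second exon in capitals. They are the reverse complement of the sense gene's own exon junctions.
Crebbp, intron chr16:4128687-4137365: gagatcccaggatggTTTGTTGGTTTCGCT
Crebbp, intron chr16:4180134-4213138: acaatgatccaaaatCTGTGTTGTCATTCG
Mbnl1, intron chr3:60529805-60595593: tctggagcaacgaccTTTCAGTGAATCAAA
Ubl3, intron chr5:148512003-148551952: gaggcgcaaattaatCATATCCGCCGGGAC
Gtf2a1, intron chr12:91586802-91589534: tctatacaatttaggCACGGTGTTTGTGTT

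The other 707 spliced loci had no intron with both ends equal to those of a sense intron. Counting ends within 10 bases, 222 spliced loci in place of 194 had a mirrored intron. The locus opposite 9030025P20Rik had 47 and 32 reads and 19 introns, none mirrored, of which 9 were read in both libraries. The locus opposite Lrrc30, a leucine-rich repeat gene, had 20 and 13 reads, spanned the whole gene and had 8 introns read in both. The Ldb3 locus, opposite the gene of a Z-disc protein, had 22 and 87 reads and 1 intron of 369 bases, read 8 and 51 times. Loci opposite B230206L02Rik (14 and 21 reads, 6 introns in both) and Rora, a nuclear receptor gene (30 and 12 reads, 3 introns in both), had no mirrored intron either. In Neat1 the main intron was only 59 bases long, read 21 and 40 times.

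Where their bases could be read, the 3′ ends of the antisense models often lay at genomic adenine stretches. Bases past the end could be read where they fell within annotated exons. Leaving out spike-ins, this held for 1590 of 6696 models of replicate 1 and 1884 of 8885 of replicate 2. Many deposited model ends coincide with annotated exon boundaries (at the 3′ end 20.4% of models in replicate 1 and 18.2% in replicate 2), so these were kept apart. At the other ends, bases could be read for 743 of 5330 models in replicate 1 and 913 of 7270 in replicate 2. Of these, 519 in replicate 1 (69.9%) and 702 in replicate 2 (76.9%) had at least 12 adenines in the next 20 bases. This was so for 1.86% of all 20-base windows on the antisense strand of the exons of the same genes. At ends equal to an annotated boundary the shares were 7.20% and 6.39%. Weighted by reads, the shares away from a boundary were in the other order, at 81.7% in replicate 1 and 40.9% in replicate 2. The most read Klhl31 model of replicate 2, with 4206 reads, had 2 adenines in those 20 bases.

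In replicate 1 the share was 69.7% of models with 1 read and 68.1% of those with at least 10, and in replicate 2 it was 78.0% and 73.0%. Over loci with at least 10 reads, the most read model ended away from a boundary at 443, of which 158 could be read. Only 4 of the 246 such loci lying mainly in introns could be read. An adenine stretch followed at 109 of the 158 (69.0%), against 16 of the 106 readable loci that ended at a boundary (15.1%). Single-exon sense models of the authors' genomic class, read on the strand of an annotated gene, had one at 18.5% and 20.5% of ends away from a boundary. The polyadenylation signal AATAAA, searched on the antisense strand in the last 40 bases, was present in 9.52% and 8.65% of the antisense ends away from a boundary and in 37.7% and 37.5% of those sense ends. It occurred in 2.52% of all 40-base windows of the same exons. Whether cDNA synthesis began within these adenine stretches was not tested.

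**Figure D3:**
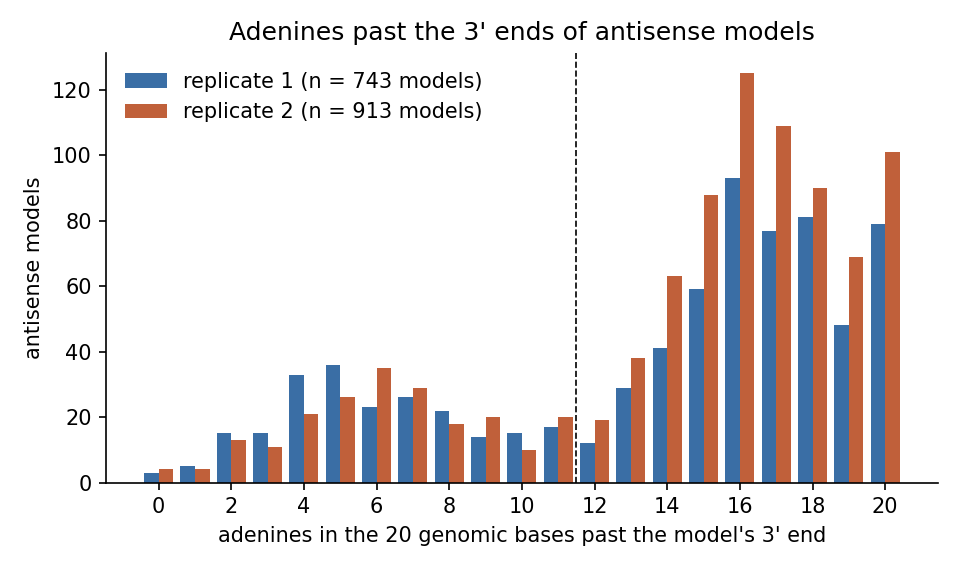
Number of antisense models (vertical) by the count of adenines in the 20 genomic bases past their 3′ end. Shown are the 743 models of replicate 1 (blue) and 913 of replicate 2 (orange) with readable bases whose end was not at an annotated exon boundary. To the right of the dashed line, at 12 or more adenines, lie 69.9% and 76.9% of the models.

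The 3′ ends recurred between the libraries more often than the 5′ ends. Of 565 loci with at least 10 reads that were read in both libraries, leaving out 2 on spike-ins, 406 (71.9%) had 3′ ends of their most read models within 10 bases of each other, and 214 (37.9%) had 5′ ends that close. Where neither 3′ end was at an annotated boundary, 287 of 400 (71.8%) were within 10 bases. The median difference was 0 bases at the 3′ end and 330 bases at the 5′ end over the 565 loci.

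Of the 11543 loci, 2953 (25.6%) were read in both libraries and held 80.5% of the antisense reads. Among loci with at least 10 reads over both libraries the share was 567 of 593 (95.6%), and a locus of 1 read cannot be read in both. Intergenic loci, built in the same way from the authors' intergenic models, were read in both in 480 of 2808 cases (17.1%), and annotated antisense genes with reads in 251 of 535 (46.9%). Of intergenic loci with at least 10 reads, 76 of 91 were (83.5%). The sets were not matched for reads. At least 10 reads were held by 5.14% of antisense loci, 3.24% of intergenic loci and 14.2% of these annotated genes. The best read annotated antisense genes were Atcayos (111 and 87 reads), Gm20659 (98 and 73), Gm29773 (33 and 59), Gm12224 (58 and 26) and Gm15417 (63 and 21). All genes of this annotated set together took 0.130% of the reads in replicate 1 and 0.142% in replicate 2. The antisense loci without the ribosomal unit and spike-ins took 1.41% and 2.32%. Only genes of GENCODE type antisense, or with a name ending in os or -as, are in the annotated set. Other annotated genes that lie opposite a gene are not in it, so the shares do not compare all annotated with all unannotated antisense reads.

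Replicates 1 and 2 differed at many loci. By Fisher's exact test with Benjamini-Hochberg adjustment over 9752 features, 134 of 593 loci (22.6%) passed an adjusted p of 0.05 with a change of 2-fold or more, against 11.6% of all features and 10.6% of annotated genes. Of these, 117 were higher in replicate 2 and 17 lower. The shares higher were 9.06% of all features and 8.25% of annotated genes, and the shares lower 2.56% and 2.39%. Spike-ins are counted with the annotated genes in this test. Without the ribosomal loci and spike-ins, 116 of 589 antisense loci were higher and 14 lower, and 11.3% of all features were called. Of 91 intergenic loci tested, 38.5% were called, 20.9% higher and 17.6% lower, so a larger share than of the antisense loci. The test sets 1 library against the other and says nothing of a condition. The median log2 ratio of CPM + 1, replicate 2 over replicate 1, was 0.74 for the antisense loci, 0.19 for annotated genes and 0.21 for all features.

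The ratio went with length, counted as the bases covered by the joined models of both libraries. Length and ratio thus rest on the same reads and are not independent. The ratio had a median of 0.08 over 75 loci of up to 1000 bases and 0.54 over 99 loci of over 1000 and up to 2000. It was 0.84 over 197 loci of over 2000 and up to 4000, and 0.94 over 222 longer loci. Antisense models were also longer in replicate 2, with a median of 1974 bases against 1438.5 in replicate 1. The part of read length in the library difference was not tested.

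**Figure D4:**
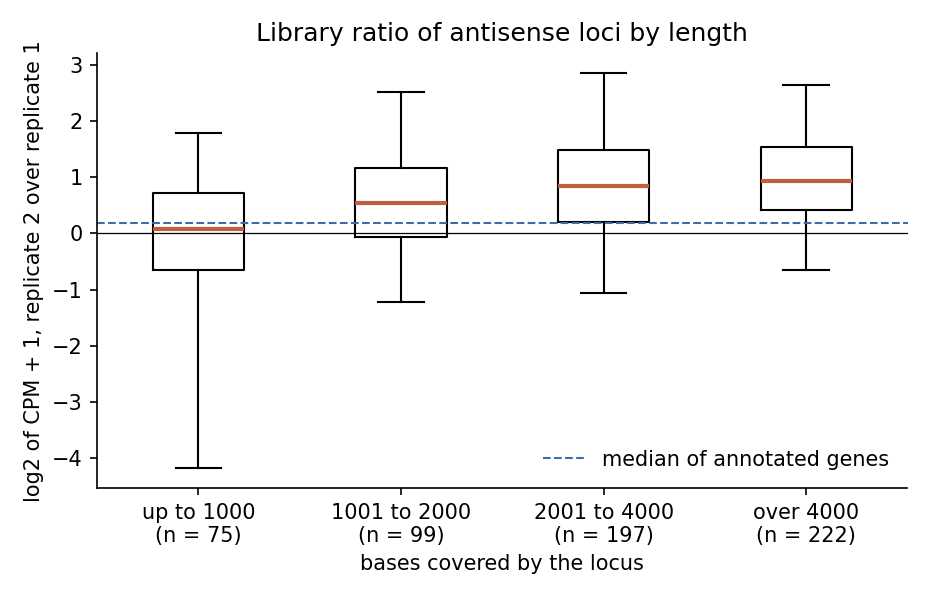
Log2 ratio of CPM + 1, replicate 2 over replicate 1, for the 593 loci with at least 10 reads by the number of bases they cover. Those bases are counted over the models of both libraries, so they are not independent of the ratio. Boxes give the quartiles, orange lines the medians (0.08, 0.54, 0.84 and 0.94) and whiskers the 5th and 95th percentiles, and the dashed line is the median of annotated genes (0.19).

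Qk, an RNA-binding regulator of splicing, had an antisense locus of 17 reads in replicate 1 and 114 in replicate 2, a log2 ratio of 3.00 (adjusted p = 6.3e-23 by Fisher's exact test), and was named after its values were seen. Its sense gene was called higher too, with 221 and 709 reads (log2 2.04). The Ldb3 locus had 22 and 87 reads (log2 2.27, adjusted p = 6.8e-13 by Fisher's exact test). Both Dmd loci with at least 10 reads were higher in replicate 2, with 29 and 79 reads at the first and 1 and 20 at the second (log2 1.76 and 3.44). Ppargc1a, the coactivator of mitochondrial biogenesis, had 0 and 19 antisense reads, at least 8.15-fold higher in replicate 2 against the level of 3 reads. Of the loci opposite fast contractile genes, 5 of 9 tested were higher and none lower, with a median log2 ratio of 1.32, where 19.7% of all 593 antisense loci and 9.06% of all features were higher. Both Tpm1 loci among these were not called when the libraries were scaled by TMM or DESeq2 factors, and Atp2a1 locus 1 overlaps a gene of its own strand. Opposite the giant genes, 4 of 9 tested were higher and none lower, with a median of 1.73, beside the same shares of 19.7% and 9.06%. The median was 0.84 for all tested loci of over 2000 and up to 4000 bases, and 0.94 for those of over 4000. No test set either list against other loci.

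Sense and antisense ratios had a Spearman correlation of 0.23 over 489 loci with both tested, a description over loci of the same 2 libraries. Of 99 loci called higher whose gene was tested, 22 had a gene called higher, beside 8.25% of annotated genes and 9.06% of all features. Of 6 loci called lower whose gene was tested, 0 had a gene called lower, beside shares of 2.39% and 2.56%. In 2 cases gene and locus were called in opposite directions. The libraries also differed in markers of several cell types. All 5 slow-fibre markers (Myh7, Myl2, Tnnt1, Tnni1, Atp2a2) were read, and their summed level was 236.5 CPM in replicate 1 and 3796 CPM in replicate 2. The 8 skeletal muscle markers summed to 346100 and 326700 CPM, but their members went different ways. Atp2a1 was at 151200 and 174800 CPM and Myh4 at 22960 and 29390 CPM, whereas Ckm was at 65820 and 49810 CPM, Tnnc2 at 27860 and 14860 CPM, Mylpf at 11010 and 3970 CPM and Tnnt3 at 2332 and 1391 CPM. Endothelial markers summed to 37.8 and 102.3 CPM and those of smooth muscle and pericytes to 207.4 and 403.2 CPM. Of the latter, Rgs5 was at 148.4 and 302.6 CPM, Myh11 at 7.95 and 29.8 CPM and Tagln at 6.6 and 22.2 CPM. Acta2 was at 34.5 and 36.7 CPM and Pdgfrb at 9.94 and 11.9 CPM. Fibroblast markers differed little, at 651.9 and 688.7 CPM in sum. Adipocyte markers summed to 106.7 and 114.2 CPM, but their members went different ways. Lep was at 4.64 and 24.7 CPM, Adipoq at 9.94 and 18.75 CPM and Plin1 at 1.99 and 4.26 CPM. Cfd was at 51.0 and 27.3 CPM and Fabp4 at 39.1 and 39.2 CPM. Immune markers summed to 35.1 and 14.5 CPM, blood markers to 204.7 and 123.6 CPM and liver markers to 0 and 4.26 CPM. The immune sum was nearly all Cd74, at 32.5 and 13.6 CPM, and each other immune marker had at most 2 reads in a library. Heart markers were at 0 in replicate 1 and at 12.8 CPM in replicate 2, all from Myh6, with Nppa and Nppb at 0, and of 3 brain markers Snap25 and Gfap were at 0 in both and Syt1 had 1 read in each. More slow fibres and more slow-fibre RNA per fibre cannot be told apart here, and the part of fibre or cell makeup in the antisense differences was not tested.

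Several loci called between the libraries had 0 reads in 1 of them. The locus opposite Gm26825 had 963 reads in replicate 1 and 0 in replicate 2. It is 86 bases long and shares a base with the pseudogene Gm15459 on its own strand, which had 567 reads in replicate 1 and 1371 in replicate 2. With those reads added, the log2 ratio was 0.20 in place of -9.32. The locus opposite Gm45777 had 0 and 53 reads, and intergenic models beside it had 33 and 0. Of 11 loci called lower with 0 reads in replicate 2, 8 had other reads of that library on the same strand within 1000 bases, and of 15 called higher with 0 reads in replicate 1, 5 did.

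At Cdv3 no such reads were found, and its 3′ UTR locus (chr9:103354468-103355313, + strand) had 258 reads in replicate 1 and 0 in replicate 2. That is at least 66.8-fold lower in replicate 2, while the gene itself had 55 and 64 sense reads. The locus opposite Hdac4, a histone deacetylase gene, had 11 and 0 reads and none beside it either, and was called with a read minimum of 10 or 5 but not with none (adjusted p = 0.0594 by Fisher's exact test). At Atp2a1, locus 1 had 2 and 48 reads and overlaps Rabep2 on its own strand. The reads of other same-strand features within 1000 bases were 39 and 13, and with those added the locus was not called.

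**Figure D5:**
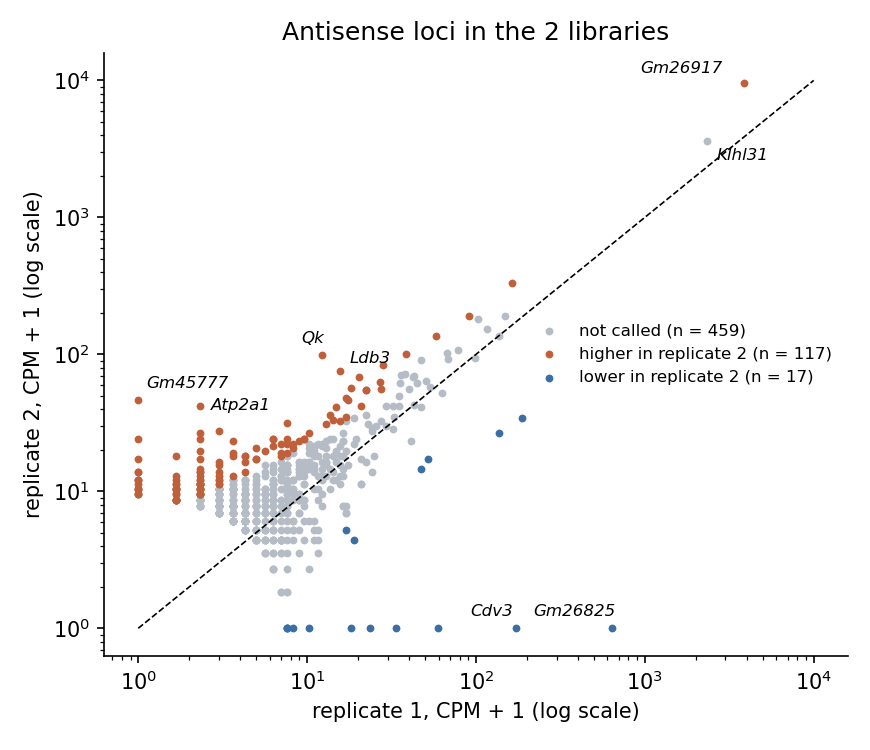
Antisense loci with at least 10 reads, as CPM + 1 in replicate 1 (horizontal) and replicate 2 (vertical), both on log scales, with the dashed line at equal values. Loci called higher in replicate 2 (117, orange) and lower (17, blue) are coloured, and points on the left or lower edge had 0 reads in 1 library.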

How the data were processed

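Transcript models were quantified with TALON against GENCODE M21 on mm10, per the file headers and the deposited annotation. The sources used here do not name the aligner, the platform, versions or a filter on models. The authors deposited raw read counts per transcript model and library, with the number of exons and length of each model. All counts were used as deposited, with library totals as denominators, and exons came from the deposited annotation of the same sample.

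Models were joined by overlap of span on the same strand. CPM and log2 ratios of CPM + 1 were computed over annotated genes, spike-ins, antisense loci and intergenic loci with at least 10 reads. Fisher's exact test with Benjamini-Hochberg adjustment (Python 3.11.15, scipy 1.17.1) was run over the same features. edgeR 4.0.16 and DESeq2 1.42.0 gave only scaling factors for alternatives. On simulated data for this comparison (8-fold changes) 100 of 100 raised and 53 of 77 lowered features were called, and 3 of 9162 unchanged ones. The simulated counts were Poisson draws from rates pooled over both libraries, with counting error alone. The share of unchanged features called is therefore not a rate of false calls between real libraries.

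The 20 most read loci, the 10 most read spliced loci, the 10 most read spliced loci with no mirrored intron, the loci with the 10 highest and 10 lowest called ratios, loci opposite the 10 most read genes and loci opposite gene lists could be named. The members, lists and rules were chosen with earlier results of these data known. Loci opposite some genes are counted in the totals but not reported singly here. A model's ends stand for all reads assigned to it. Bases were read only inside annotated exons.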

Additional observations from a re-analysis of the deposited data

Results flagged for a closer look

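Spike-in RNAs added to each library have a known strand. Of those with reads, 61 were read only on the annotated strand, with 47870 reads and 0 antisense reads, which allows a share of up to 0.00733% in replicate 1 and 0.0433% in replicate 2. By contrast 4 were read only on the other strand, which made them antisense loci and drew attention to them. ERCC-00009 had 319 antisense reads over both libraries, ERCC-00116 had 96, ERCC-00059 had 5 and ERCC-00099 had 4. None was read on both strands.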

How the results depend on the processing

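No paired analysis was possible because the libraries form a single group. With models of at least 2 reads there were 3726 loci, of which 31.2% were read in both libraries and 4.40% were spliced. From 1 library alone there were between 6315 and 8312 loci. Among loci with at least 10 reads, 95.6% were read in both, 17.7% were spliced and 85.5% lay within the gene. Merging within 1000 bases gave 26.99% in both, and assigning genes by span gave 93.9% within the gene. Spliced loci made up between 6.70% and 7.70% from 1 library. The antisense share was 6.52% of the reads on unannotated models, and between 1.83% and 3.29% from 1 library. Antisense reads per 100 sense reads were 0.664 for genes of at least 100 reads, 3.03 over known sense models, 19.7 for loci with at least 10 reads (chosen after seeing the data) and between 3.23 and 3.33 from 1 library. Mirrored introns moved by less than the spread between libraries under every alternative run.

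The 134 loci called between the libraries became 87 at 4-fold, and lay between 103 and 181 under the other alternatives. TMM scaling moved the median log2 ratio of all features from 0.21 to 0.01 and left 92 higher and 22 lower loci, and DESeq2 factors 87 and 22. Under both scalings, and with replicate 1 thinned, Nfia was no longer called, and under the scalings neither were both Tpm1 loci. Adding same-strand reads within 1000 bases, chosen after seeing the data, turned Gm26825 to 0.20 (log2), because reads beside it were counted. With 2 libraries, a locus of 1 read cannot be told from one missed by depth.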
